A study of Arabidopsis thaliana with 3 samples.

Results

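The genes described here are 10 Arabidopsis thaliana genes for SR splicing proteins, taken by gene identifier from a fixed list out of the 33557 genes in the deposited tables. All 10 were found: SR30 (AT1G09140), SR34 (AT1G02840), SR34a (AT3G49430), SR34b (AT4G02430), RS31 (AT3G61860), RS40 (AT4G25500), RS41 (AT5G52040), SR45 (AT1G16610), SR45a (AT1G07350) and RS2Z33 (AT2G37340). The list is by gene identity and applies no threshold on a measured value, though it was drawn up with earlier results of these data known. RNA of whole seedlings aged 11 days was sequenced in 3 groups. These were wild type kept in MS liquid medium (WT-0), wild type in MS liquid medium with 200 mM NaCl for 4 h (WT-S), and the skip mutant in the same salt medium for the same time (skip-S). The title of the study places the comparisons in the question of how SKIP, a spliceosome component, bears on salt tolerance through alternative splicing. The labels name neither the skip allele nor the accession of the wild type, and no untreated skip group was analysed here.

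SR proteins bind pre-mRNA through RNA recognition motifs and recruit splicing factors through domains rich in alternating arginine and serine. They help to define exons and to choose between splice sites, and kinases of the SRPK and LAMMER families phosphorylate their arginine-serine domains. In plants the SR transcripts are themselves heavily alternatively spliced, and many of their isoforms carry premature stop codons and are targets of nonsense-mediated decay.

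Each group is represented by 1 value per gene that merges 2 replicates, so there is no spread between replicates, no test and no p-value for any difference given. The values are read as FPKM, sequenced fragments per unit of transcript length and of library depth, a level that can be compared between genes of different length. They are totals per gene and measure neither isoforms nor splicing. Because whole seedlings were used, fewer cells of a type and less RNA per cell cannot be told apart. The skip-S level carries both the genotype and any difference in its response to salt, which cannot be told apart without untreated skip.

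The 10 genes fall into 4 groups by protein structure. SR30, SR34, SR34a and SR34b are the relatives of human SRSF1 (ASF/SF2), with a pair of RNA recognition motifs ahead of the arginine-serine domain. RS31, RS40 and RS41 belong to the RS subfamily, and RS2Z33 to the RS2Z subfamily, both described from plants, and RS2Z33 also has zinc knuckles. SR45 and SR45a are SR-like proteins whose arginine-serine domains flank the RNA recognition motif on both sides. SR45 is the plant relative of RNPS1 and is known to bind SKIP, and SR45a is related to Transformer-2. In the RefSeq annotation (TAIR10.1) the longest encoded proteins ran from 264 residues (RS31) to 425 residues (SR45). Counting each occurrence of RS or SR in the residues, RS31 had 10 such dipeptides and SR45a had 50.

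SR34 and SR34b are the closest pair among the 10 by protein, with 81.2% identical residues over the aligned positions and 82.8% identical bases in their coding sequences. The following stretch of coding exon 9, counted among the coding exons of the transcript with the longest coding sequence, is shown because SR34b had the lowest ratio of the 10 in both comparisons and SR34 did not follow it. It is the ungapped stretch of median identity among those lying within 1 exon of both genes. Capitals mark the 19 of 90 bases at which the copies differ, and the other 71 are identical. Both read 5′ to 3′ on the plus strand of TAIR10.1 (RefSeq), SR34 at chr1:628280-628369 and SR34b at chr4:1070691-1070780.
SR34: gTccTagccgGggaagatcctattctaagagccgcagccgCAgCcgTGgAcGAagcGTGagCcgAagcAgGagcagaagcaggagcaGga
SR34b: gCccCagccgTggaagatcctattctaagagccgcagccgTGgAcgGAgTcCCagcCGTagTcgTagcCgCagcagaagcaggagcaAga
No run of 50 bases in the longest annotated transcript of SR34b was found in that of another gene on either strand, and the same held for 7 other members, SR34 among them. The exceptions were RS41 and RS2Z33, which shared 15.4% and 26.0% of such runs, mainly with loci on the opposite strand.

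The members varied in intron length and number of transcripts. In the transcript with the longest coding sequence, the longest intron ran from 275 nt in SR45 to 942 nt in SR30, and RefSeq lists between 1 transcript (RS31) and 8 transcripts (RS40) per gene. Below are the 5′ splice sites of the longest intron between coding exons of that transcript, 10 bases of exon followed by 20 of intron with the intron's first GT in capitals, for the genes whose values the results turn on and for the RS subfamily. SR34 (chr1:628460-628489, plus strand) and SR34b (chr4:1070877-1070906, plus strand) both have it after coding exon 9. RS31 (chr3:22902034-22902063, minus strand), RS40 (chr4:13025264-13025293, plus strand), RS41 (chr5:21131177-21131206, plus strand) and RS2Z33 (chr2:15672205-15672234, minus strand) have it after coding exon 1. All are on TAIR10.1.
SR34: ctccaagaagGTaatgatttgattcctttt
SR34b: ctccacgaggGTatgcttcatttcttctat
RS31: atgaaatctgGTaaagtgtcttctaagtta
RS40: atgaaagctgGTgagccttttttttctttc
RS41: atgaaagctgGTaagtcttggttcttgttt
RS2Z33: gatacggaagGTaattgactcttctatcta
The 10 exon bases shown are the same in RS40 and RS41. These introns were 798, 782 and 900 nt long in RS31, RS40 and RS41, 818 nt in SR34 and 398 nt in SR34b. The deposited gene totals give no reading of whether any of these sites was used.

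All 10 genes were expressed at 5 FPKM or more in every group. In WT-0 their levels ran from 13.1 FPKM for SR34b to 83.7 FPKM for SR34, and SR34b lay at percentile 63.1 of the genes above 0 while SR34 lay at percentile 93.9. The other 8 lay between percentiles 82.4 and 90.3. Levels of skip-S are set beside WT-0 below after multiplying the second table by 1.1049, the factor by which the WT-S values of the 2 tables, which were scaled separately, differ. On that scale the 10 levels summed to 453.9 FPKM in WT-0, 467.5 FPKM in WT-S and 476.9 FPKM in skip-S. The sum was thus 2.995% higher in WT-S than in WT-0, and 2.01% higher in skip-S than in WT-S. Differences this small depend on the scaling. Rescaling to a common total over nuclear genes moved the median log2 ratio of the 10 genes, skip-S to WT-S, from 0.01 to 0.12. The shares of some genes moved more than the sum. SR34 held 18.4%, 17.0% and 16.5% of the sum in WT-0, WT-S and skip-S. RS2Z33 held 11.2%, 13.7% and 17.8%. SR34b held 2.89%, 2.11% and 1.28%. SR34 had the highest level of the 10 in both wild-type groups and RS2Z33 had it in skip-S.

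**Figure D1:**
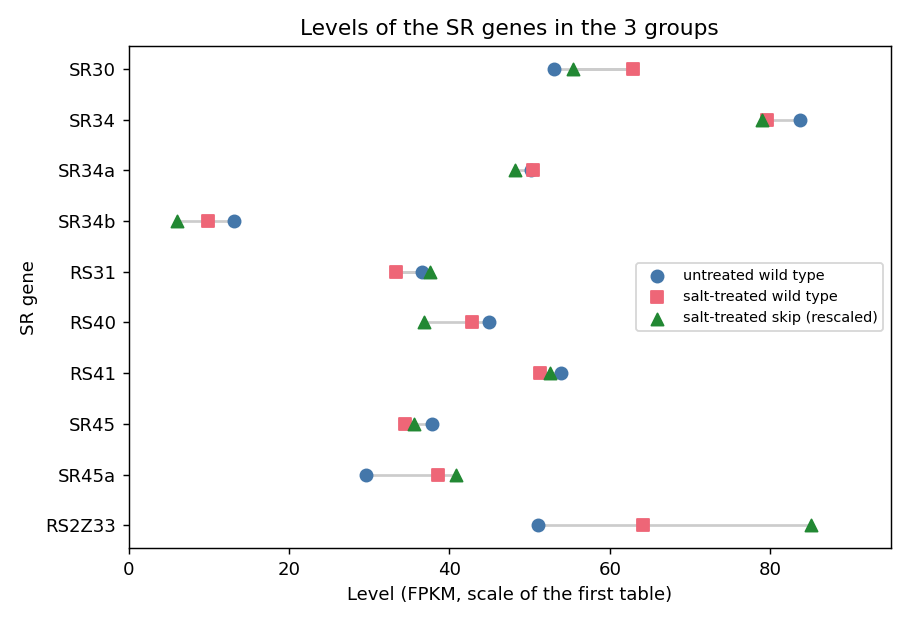
Level of each SR gene in FPKM (horizontal axis) in untreated wild type (circles), salt-treated wild type (squares) and salt-treated skip (triangles, multiplied by 1.1049 to the scale of the first table); each point is 1 merged value without an error. SR34b lies lowest in all 3 groups at 13.1, 9.84 and 6.08 FPKM, whereas RS2Z33 stands at 51.0, 64.1 and 85.1 FPKM.

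Salt treatment of wild type left the 10 gene totals within a narrow range. None of the 10 passed a 2-fold rule, a log2 ratio of FPKM + 1 of at least 1 in size, which 9.85% of all 33557 genes passed. None passed the same rule at 1.5-fold either, which 20.9% of all genes passed and 27.1% of the 13592 genes at 5 FPKM or more in both groups. The log2 ratio of WT-S to WT-0 was above 0 for 4 genes and below 0 for 6, with a median of -0.07, beside a median of 0.00 over those 13592 genes. These counts describe this pair of merged libraries, and no test stands behind them.

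In the SRSF1-related group the members differed under salt. SR30 stood at 53.1 FPKM in WT-0 and 63.0 FPKM in WT-S, a log2 ratio of 0.24. SR34, the most abundant of the group, stood at 83.7 and 79.5 FPKM, a log2 ratio of -0.07. SR34a stood at 50.2 and 50.4 FPKM, a log2 ratio of 0.01, and 98.8% of the genes at 5 FPKM or more had a ratio larger in size. SR34b was the lowest member and had the most negative ratio of the 10. Its level was 13.1 FPKM in WT-0 and 9.84 FPKM in WT-S, a log2 ratio of -0.38, and 44.2% of the genes at 5 FPKM or more had a ratio larger in size. The ratio of the SR34 level to the SR34b level was 6.38 in WT-0 and 8.08 in WT-S.

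The RS subfamily, whose members also take part in splice site choice, moved little under salt. RS31 was at 36.6 FPKM in WT-0 and 33.4 FPKM in WT-S, RS40 at 44.96 and 42.8 FPKM, and RS41 at 53.9 and 51.3 FPKM. The log2 ratios of the 3 were -0.13, -0.07 and -0.07, all on the lower side. RS40 and RS41, with 79.9% identical residues, kept a level ratio of RS41 to RS40 of 1.20 in both groups.

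SR45a and RS2Z33 had the highest ratios of the 10 under salt. SR45a was at 29.7 FPKM in WT-0 and 38.6 FPKM in WT-S, a log2 ratio of 0.37. RS2Z33 was at 51.0 and 64.1 FPKM, a log2 ratio of 0.33. Neither stood apart from genes at large, since 45.7% (SR45a) and 50.8% (RS2Z33) of the genes at 5 FPKM or more had a ratio larger in size. SR45 is paired with SR45a here by protein layout only, since 38.4% of their aligned residues are identical. It was at 37.8 FPKM in WT-0 and 34.5 FPKM in WT-S, a log2 ratio of -0.13. SR45 was therefore the more abundant of the pair in WT-0, with a ratio of 1.27 to SR45a, and the less abundant in WT-S, with a ratio of 0.895. RS2Z33 changed order in the same way with its paralog RS2Z32, to which 83.6% of its residues are identical. The level ratio of RS2Z33 to RS2Z32 was 0.921 in WT-0 and 1.33 in WT-S, with RS2Z32 at 55.4 and 48.1 FPKM.

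**Figure D2:**
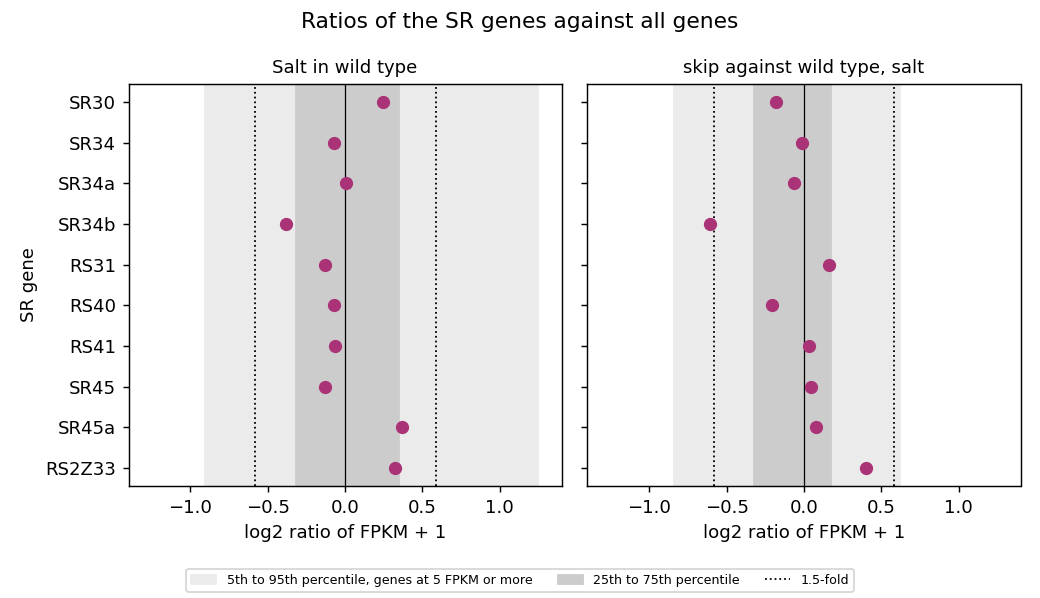
Log2 ratio of FPKM + 1 of each SR gene for salt against no salt in wild type (left) and for skip against wild type under salt (right); each point is 1 ratio of merged values without an error. Shading gives the middle 50% and the 5th to 95th percentile of genes at 5 FPKM or more, and dotted lines mark 1.5-fold; SR34b on the right, at -0.61, is the point past a dotted line.

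Between salt-treated skip and salt-treated wild type the SR genes again stayed close together, with SR34b lower and RS2Z33 higher as the outermost members. None of the 10 passed the 2-fold rule, which 4.24% of all genes passed. The 1.5-fold rule was passed by 1 of the 10, SR34b, on the lower side, and by 12.9% of all genes, or 16.8% of the 13318 genes at 5 FPKM or more in both groups. That share of members is near the background. The log2 ratio of skip-S to WT-S was above 0 for 5 genes and below 0 for 5, with a median of 0.01, beside a median of -0.06 over those 13318 genes. Scaling mattered here: when levels were rescaled to a common total over nuclear genes the median gene went from -0.06 to 0.04. Both comparisons share WT-S, whose value enters a gene's 2 ratios with opposite signs.

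SR34b was at 8.91 FPKM in WT-S and 5.50 FPKM in skip-S on the scale of the second table. Its log2 ratio was -0.61, and 15.6% of the genes at 5 FPKM or more had a ratio larger in size. The gene lay just past the 1.5-fold line, and its ratio moved inside it under 3 of the 5 alternatives. It was -0.40 with a pseudocount of 5, -0.54 relative to the median gene and -0.53 after rescaling to nuclear genes. Keeping only genes at 1 FPKM or more could not change its ratio, and a pseudocount of 0.1 could only enlarge it, to -0.68. SR34 was at 72.0 FPKM in WT-S and 71.4 FPKM in skip-S, a log2 ratio of -0.01 that changed sign relative to the median gene (0.05) and after rescaling (0.10). The level ratio of SR34 to SR34b was 8.08 in WT-S and 13.0 in skip-S. SR30 was at 57.0 FPKM in WT-S and 50.1 FPKM in skip-S, a log2 ratio of -0.18, the opposite side of 0 from its ratio under salt, and -0.07 after rescaling. SR34a was at 45.6 and 43.6 FPKM, a log2 ratio of -0.07, which became 0.04 after rescaling.

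RS2Z33 had the highest ratio of the 10 in skip. It was at 58.0 FPKM in WT-S and 77.0 FPKM in skip-S, a log2 ratio of 0.40 that was 0.46 relative to the median gene and 0.52 after rescaling. Of the genes at 5 FPKM or more, 30.9% had a ratio larger in size. RS2Z32, its paralog, was on the same side of 0 at 43.5 and 54.5 FPKM, a log2 ratio of 0.32, so that the level ratio between them was 1.33 in WT-S and 1.41 in skip-S. RS2Z33 overlaps an opposite-strand lncRNA locus of the annotation, AT2G08865, over 852 nt, and that locus was not analysed here. No source used here gives the strand setting, so reads of RS2Z33 and of this locus cannot be told apart. The neighbouring gene AT2G37330 overlaps RS2Z33 by 41 nt on the opposite strand and was at 4.61 FPKM in WT-S and 4.43 FPKM in skip-S.

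The RS subfamily lay on both sides of 0 in skip, with no member past 1.5-fold. RS31 was at 30.2 FPKM in WT-S and 34.0 FPKM in skip-S, a log2 ratio of 0.16. RS40 was at 38.7 and 33.4 FPKM, a log2 ratio of -0.21. RS41 was at 46.5 and 47.5 FPKM, a log2 ratio of 0.03. Ratios larger in size than those of RS31, RS40 and RS41 were found in 65.05%, 57.1% and 92.8% of genes at 5 FPKM or more. The RS41 to RS40 level ratio, 1.20 in both wild-type groups, was 1.42 in skip-S. RS41 overlaps the opposite-strand locus AT5G52045 over 656 nt, which was not analysed here. SR45, the SKIP-binding member, was at 31.2 FPKM in WT-S and 32.2 FPKM in skip-S, a log2 ratio of 0.04. SR45a was at 34.9 and 36.9 FPKM, a log2 ratio of 0.08, and so stayed more abundant than SR45 in skip-S. After rescaling to nuclear genes the skip ratios were 0.28 for RS31, -0.10 for RS40, 0.14 for RS41, 0.15 for SR45 and 0.19 for SR45a, with the same signs and none past 1.5-fold.

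**Figure D3:**
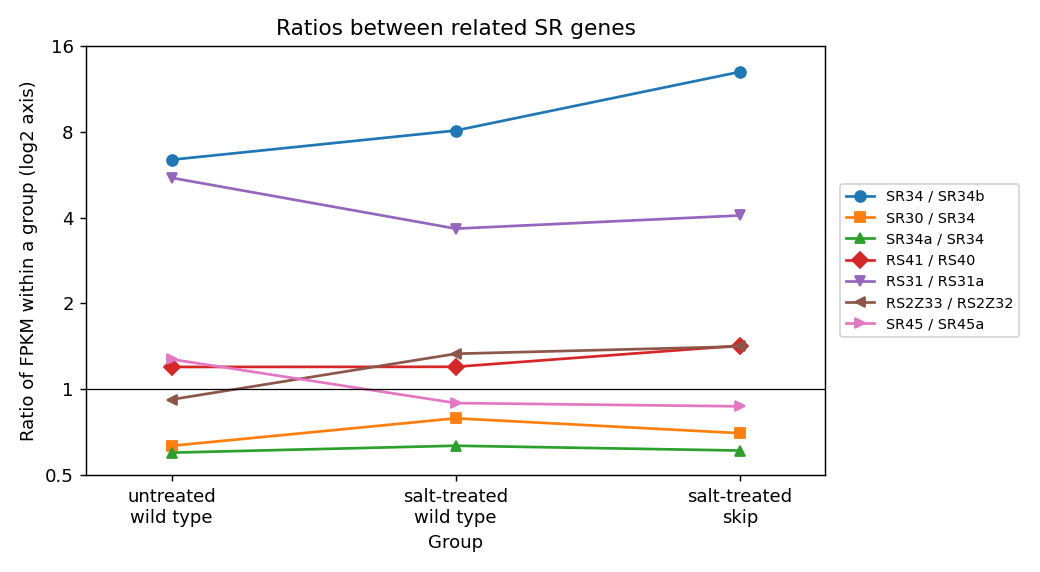
Ratio of the FPKM of SR genes within each group, on a log2 axis, for 7 pairs. They are related by sequence or, for SR45 and SR45a, by protein layout only. Each point is 1 ratio of merged values without an error. The SR34 to SR34b ratio goes from 6.38 to 13.0 across the groups, and the SR45 to SR45a and RS2Z33 to RS2Z32 ratios cross 1 between untreated and salt-treated wild type.

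Set against untreated wild type across the 2 tables, salt-treated skip differed from it at 1.5-fold or more in 2 of the 10 genes. SR34b was lower, at 13.1 FPKM in WT-0 and 6.08 FPKM in rescaled skip-S, and RS2Z33 was higher, at 51.0 and 85.1 FPKM. The log2 ratios were -0.99 and 0.73. None of the 10 passed the 2-fold rule on this scale. Over all genes 25.7% passed the 1.5-fold rule in this comparison and 12.6% the 2-fold rule. SR34b was at the edge of the 2-fold rule and passed it with a pseudocount of 0.1, at -1.10. After rescaling to nuclear genes, which moved the median gene of this comparison from -0.04 to 0.10, the ratios were -0.89 and 0.88, and SR45a also passed 1.5-fold at 0.60. For SR34b and RS2Z33 the salt ratio and the skip ratio have the same sign, as they also do for SR34, RS40 and SR45a. The genes nearest to SR34b in the pair of ratios, among 12580 genes at 5 FPKM or more in all groups, were AT4G04340, PLP9 and AT1G28680. AT4G04340 stood at 43.8 FPKM in WT-0, 33.3 FPKM in WT-S and 21.4 FPKM in rescaled skip-S. In all, 9 genes lay within a distance of 0.05 on the log2 scale from SR34b, so its pair of ratios is shared by other genes.

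The other 10 SR genes of Arabidopsis in the same tables gave a similar range. In WT-S against WT-0 they had a median log2 ratio of 0.08, from -0.20 for RS2Z32 to 0.41 for RS31a. None passed 1.5-fold, which 20.9% of all genes passed. In skip-S against WT-S the median was 0.03. The 1.5-fold rule was passed by 1 of 10, on the lower side, and by 12.9% of all genes in either direction. The gene past it was SCL28, an SC35-like factor, at 1.61 FPKM in WT-S and 0.632 FPKM in skip-S. Its log2 ratio was -0.67 at a low level. The highest was RSZ22a, a zinc knuckle SR protein, at 32.0 FPKM in WT-S and 47.7 FPKM in skip-S, a log2 ratio of 0.56. RS31a, the paralog of RS31, was at 6.63 FPKM in WT-0 and 9.12 FPKM in WT-S. The RS31 to RS31a ratio was 5.52 in WT-0, 3.66 in WT-S and 4.07 in skip-S. RS31a shared 28.1% of its runs of 50 bases, mainly with an opposite-strand lncRNA locus whose reads cannot be told apart from its own.

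Genes that act on SR proteins were compared as a further list of 9, the kinases and the import receptor. In WT-S against WT-0 their median log2 ratio was 0.15. The 1.5-fold rule was passed by 1 of 9, on the higher side, and by 20.9% of all genes in either direction. The gene past it was AT4G35500, which RefSeq describes only as a protein kinase. It was at 5.18 FPKM in WT-0 and 9.77 FPKM in WT-S, a log2 ratio of 0.80. The lowest was AT2G17530, likewise a protein kinase, at -0.21. In skip-S against WT-S none of the 9 passed 1.5-fold, which 12.9% of all genes passed. The median was -0.05. The ratios ran from -0.37 for AME3, a LAMMER kinase, to 0.09 for MOS14, the importin that carries SR proteins into the nucleus.

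Early spliceosome factors, with which SR proteins work at splice sites, were U1 and U2AF proteins and U11/U12-35K. They also had none of 8 past 1.5-fold in either comparison. Of all genes, 20.9% passed this rule under salt and 12.9% in skip. Their medians were -0.05 under salt and 0.02 in skip. The salt ratios ran from -0.28 for AT4G03120 to 0.41 for U2AF35a, and the skip ratios from -0.33 for U2AF35b to 0.38 for U1A, a U1 snRNP protein. Among 7 factors of nonsense-mediated decay and the exon junction complex, the median was 0.23 under salt and 0.15 in skip. The lowest under salt was MAGO, an exon junction complex subunit, at 108.8 FPKM in WT-S and 129.4 FPKM in WT-0, a log2 ratio of -0.25. None of the 7 passed 1.5-fold in skip, as against 12.9% of all genes. Their skip ratios ran from -0.52 for Y14 to 0.39 for EIF4A3, both subunits of the same complex.

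The list of hnRNP-type factors, a class that often counteracts SR proteins at splice sites, held glycine-rich, polypyrimidine tract-binding and Bruno-like RNA-binding proteins. It was the list farthest from 0 by its median, at -0.38 under salt and -0.51 in skip over 7 genes. In skip 5 of the 7 were below 0 and 2 above. The low values were not shared by PTB1 (-0.04), PTB2 (0.21) and PTB3 (0.02, named after its value was seen). In WT-S against WT-0, 1 of the 7 passed 1.5-fold, as did 20.9% of all genes. This was GRP8, a glycine-rich RNA-binding protein, at 439.4 FPKM in WT-0 and 238.2 FPKM in WT-S. In skip-S against WT-S, 2 of the 7 passed 2-fold and 3 passed 1.5-fold, all lower, beside 4.24% and 12.9% of all genes. GRP7, a clock-regulated glycine-rich RNA-binding protein, was at 847.6 FPKM in WT-S and 251.3 FPKM in skip-S, a log2 ratio of -1.75. GRP8, its close relative, was at 215.4 and 84.4 FPKM, a log2 ratio of -1.34. BRN1, a Bruno-like RNA-binding protein named after its value was seen, was at 11.3 and 6.515 FPKM. The highest ratios were 0.26 for PTB1 under salt and 0.21 for PTB2 in skip, both polypyrimidine tract-binding proteins.

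**Figure D4:**
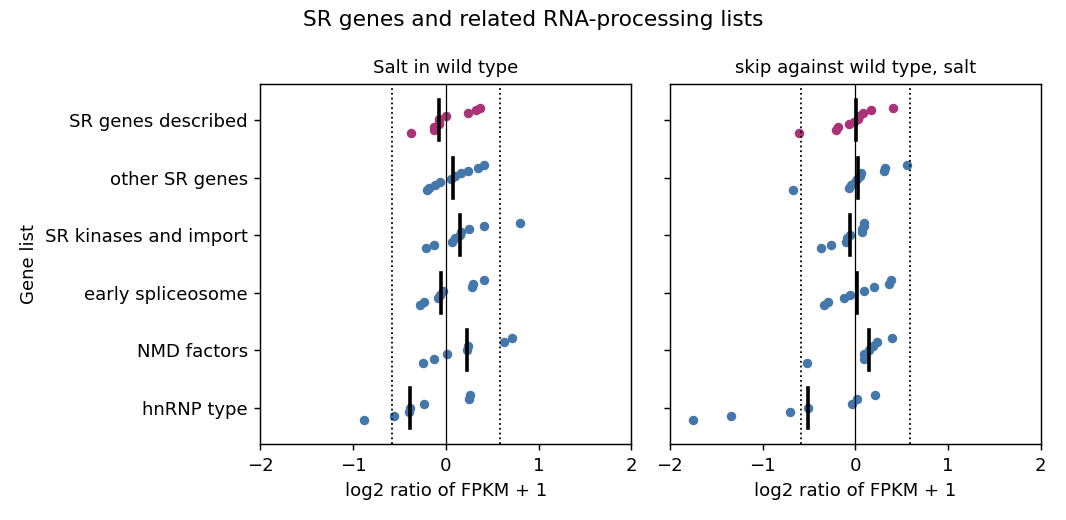
Log2 ratio of FPKM + 1 for the 10 SR genes and 5 related lists, for salt in wild type (left) and skip under salt (right); each point is 1 gene, thick bars are list medians and dotted lines mark 1.5-fold. The SR medians lie at -0.07 and 0.01, and GRP7 and GRP8 form the far left points of the hnRNP-type list on the right at -1.75 and -1.34.

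SKIP itself, the gene the mutant is named for, still had a gene total in the mutant. It stood at 39.2 FPKM in WT-0 and 54.2 FPKM in WT-S, and in the second table at 49.0 FPKM in WT-S and 41.6 FPKM in skip-S. The log2 ratios were 0.46 and -0.23. A gene total cannot show whether the transcript in the mutant is intact, and without the allele this value does not check the label.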

How the data were processed

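The deposited values were read as FPKM. This unit is an inference from their range and from Cufflinks, which with TopHat and the TAIR10 genome is named per the submitters' processing notes, without versions. Each value of the authors merges 2 replicates, and nothing says that these came from separate plants. There were 0 unused value columns. Low values lay near whole multiples of a step in 52.3% (WT-0) to 70.4% (WT-S) of cases, where 30% holds for a step fixed beforehand. The step was chosen to fit these same values, so the share reached by chance is higher and was not estimated. The steps put 1 FPKM at roughly 38 to 51 fragments per kilobase, least surely in WT-0. SR34b thus rested on roughly 360 to 941 fragments. Whole reads were not recovered.

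Ratios were log2(FPKM + 1) within a table. The pseudocount understates changes of low genes. Rules of size (2-fold, 1.5-fold) replace tests, and the code that applies them was tested on simulated data. The counts over all genes used no filter on low values, while the medians and shares of genes at 5 FPKM or more and the search for the nearest genes used that minimum. RefSeq (TAIR10.1, matched by identifier for 32810 genes) gave gene models, sequences and names. The text names all 10 members, SKIP, the highest and lowest gene of each related list per comparison, and the 3 genes nearest the member farthest from 0. A result that this rule names is not reported here. Members and lists were chosen with earlier results of these data known. Alternatives were pseudocounts of 0.1 and 5, a minimum of 1 FPKM in either group, centring on the median gene, and rescaling to nuclear genes without rRNA or short features. The comparison across tables was added after seeing the data. Python 3.11.15, numpy 2.4.6, pandas 2.3.3, matplotlib 3.10.9 and Biopython 1.88 were used.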

Additional observations from a re-analysis of the deposited data

How the results depend on the processing

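Of the SR genes, 1 passed the 1.5-fold rule in skip against wild type under salt, and 0 passed it with a pseudocount of 5, relative to the median gene, or after rescaling to nuclear genes. Rescaling moved the median SR ratio of that comparison from 0.01 to 0.12 and the median of skip-S against WT-0 to 0.10. A pseudocount of 0.1 put 1 gene past 2-fold in skip-S against WT-0, where there were 0, and rescaling put 3 genes past 1.5-fold there in place of 2. The salt comparison kept 0 genes past both rules under all 5 alternatives. The minimum of 1 FPKM changed no value and could not, since all 10 genes stood at 5 FPKM or more in every group. In the absence of replicates, a shift of up to 0.1 on the log2 scale was taken as no change, and the rough fragment numbers limit only counting error, not the spread between plants. No paired analysis was possible because each group has 1 merged value per gene.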
